A study of Mus musculus with 167 samples.

Results

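MiR-34a is a microRNA (miRNA) whose stem-loop precursor can yield a mature strand from either arm, mmu-miR-34a-5p and mmu-miR-34a-3p. Both strands were taken by name from the count tables of all 5 tissues and were 2 of the 1915 mature mouse miRNAs listed there. Reads were available for 167 small RNA libraries from 35 mice of 2 strains, covering lung, heart and brain homogenates and white blood cell (WBC) and red blood cell (RBC) fractions of blood. The mice had received either a single whole thorax lung irradiation (WTLI), which exposes the lungs and the heart, or a sham irradiation. Tissues came from animals that reached the endpoint, which was month 4 after exposure in C3H mice and month 6 in C57Bl/6 (C57) mice, so strain and month cannot be told apart. Lung, heart, brain and RBC were each sequenced from 8 sham irradiated and 7 irradiated C3H mice and from 15 sham irradiated and 5 irradiated C57 mice. WBC were sequenced from 5, 6, 11 and 5 mice in the same order. C3H mice were all female, sham irradiated C57 mice were of both sexes, and the 5 irradiated C57 mice comprised 4 males and 1 female. Each library of a group came from a different mouse.

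Transcription of the miR-34a gene is raised by p53, the transcription factor that DNA damage stabilises, and the mature miRNA represses mRNAs of cell cycle and survival genes such as cyclin dependent kinases, Bcl2 and Sirt1. The 5p strand is the one that is loaded into Argonaute, and it recognises its targets through the seed, bases 2 to 8 counted from its 5′ end. MiR-34b and miR-34c arise from a second p53 target gene, are abundant in ciliated airway epithelium and share this seed, as do the miR-449 miRNAs of ciliated cells. Such miRNAs can repress the same targets, so that the summed level of the family is given below beside that of miR-34a-5p.

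The Mir34a gene lies on the plus strand at chr4:150068454-150068555 of mouse build GRCm38.p6, as a single exon annotated as a miRNA gene, and its last bases overlap the start of Gm37795, a transcript of unconfirmed type on the same strand (chr4:150068539-150070997). The RefSeq hairpin has 102 bases, with the 5p strand at bases 20 to 41, the 3p strand at bases 64 to 84 and 22 bases between them. It is shown because both measured strands are cut from it, and they are in capitals.
Mir34a hairpin: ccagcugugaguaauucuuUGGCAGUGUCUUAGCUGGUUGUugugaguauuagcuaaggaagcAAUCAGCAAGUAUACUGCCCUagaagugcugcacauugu

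The mature strands and the other members of the seed family for which RefSeq held a sequence are shown next, with bases 2 to 8 in capitals, because these bases set which targets a strand pairs with; those of miR-34a-3p differ, and the other 4 strands share theirs.
mmu-miR-34a-5p: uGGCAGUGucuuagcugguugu
mmu-miR-34a-3p: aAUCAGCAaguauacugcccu
mmu-miR-34b-5p: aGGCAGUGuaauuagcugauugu
mmu-miR-449a-5p: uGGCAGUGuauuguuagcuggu
mmu-miR-449c-5p: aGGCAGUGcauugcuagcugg
Of the 1915 miRNAs in the count tables, 1623 matched a mature sequence by name, and GGCAGUG was the seed of 4 of the 1679 mature sequences. Outside the seed the strands differ: with the 5′ ends aligned and no gaps, miR-34a-5p has the same base as miR-449a-5p at 15 of 22 positions, as miR-449c-5p at 12 of 21 and as miR-34b-5p at 11 of 22. The family whose reads are summed below also included miR-34c-5p and miR-449b, which belong to it by name and whose seed was not checked here. The mature strands lie at chr4:150068473-150068494 (miR-34a-5p) and chr4:150068517-150068537 (miR-34a-3p), both on the plus strand. MiR-34b-5p lies at chr9:51103610-51103632 on the minus strand, and the miR-449 cluster is on the plus strand of chromosome 13 (miR-449c-5p at chr13:113036008-113036028 and miR-449a-5p at chr13:113037549-113037570).

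The libraries held between 1794995 and 7865102 miRNA reads. Levels are given as RPM, reads scaled to a library total of 1000000, and changes come from a limma fit to quantile normalised log2 RPM of all miRNAs in a tissue, with a miRNA called at an adjusted p under 0.05. Tissue markers were checked against the labels. In the heart, miR-208a-3p was above every library of the other tissues in 35 of 35 libraries, as was miR-124-3p in brain and miR-34c-5p in lung. The blood fractions were not separated in this way, since leukocyte miR-223-3p was above every other tissue in 13 of 27 WBC libraries and erythrocyte miR-451a in 0 of 35 RBC libraries. The letter A or B in the sample titles has no stated meaning, and values within each letter are given as a possible batch. Counts from homogenates cannot tell fewer cells of a type from less RNA per cell. A sham irradiated C57 lung library (replicate 1), irradiated C3H RBC libraries 6 and 7, sham irradiated C57 brain libraries 11 and 12, sham irradiated C57 RBC library 3 and sham irradiated C57 WBC library 2 lay outside the rest of their groups in miR-34a-5p. They were picked after their values were seen and not by a fixed rule. The main irradiation, tissue, strain and sex comparisons of miR-34a-5p that include them are also given without them. Most values within a letter, in males alone or with another scaling still include them.

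MiR-34a-5p was abundant in brain, intermediate in lung and heart and scarce in blood cells. In sham irradiated C3H mice it had 2171 ± 239 RPM in brain, 472 ± 72.9 RPM in lung and 233 ± 27.5 RPM in heart (SD, n = 8 each). In the blood of the same strain it had 24.5 ± 12.9 RPM in WBC (SD, n = 5) and 17.8 ± 4.4 RPM in RBC (SD, n = 8). The C57 order was the same, with 2077 ± 440 RPM in brain, 626 ± 337 RPM in lung and 407 ± 84.5 RPM in heart (SD, n = 15 each), 40.8 ± 10.9 RPM in WBC (SD, n = 11) and 28.8 ± 12.5 RPM in RBC (SD, n = 15). Ranked by reads within a library, miR-34a-5p was between the 49th and 85th most abundant miRNA in the sham irradiated brain, lung and heart libraries and stood at the 83rd place or lower in every blood library of sham irradiated mice.

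Of the 20 tissue pairs compared in sham irradiated mice, 10 in each strain, 19 differed in mean log2 RPM by two-sided permutation tests with Benjamini-Hochberg adjustment. These tests treated the libraries as unpaired, although the tissues came from the same mice. With the tissues of a mouse as pairs (exact permutation of signs) 16 of 20 differed, and WBC against lung, heart and brain in C3H mice did not pass, where 5 pairs cannot go below p = 0.0625. The exception among the unpaired tests was WBC against RBC in C3H mice, 0.33 apart on the log2 scale (exact permutation p = 0.309, n = 5 and 8). Brain exceeded lung by 2.21 in C3H (exact permutation p = 0.0001554, the smallest possible) and by 1.81 in C57 mice (permutation p = 2e-05, the smallest that 100000 resamples can give). Lung exceeded heart by 1.01 in C3H (exact permutation p = 0.0001554) and by 0.54 in C57 mice (permutation p = 0.00042). Without sham irradiated C57 lung replicate 1, brain replicates 11 and 12, RBC replicate 3 or WBC replicate 2, 19 of the 20 pairs also differed. The difference of lung and heart in C57 mice was 0.42 without the former. It also depended on the scaling: with TMM factors over all libraries, lung and heart of C57 mice were 0.10 apart (permutation test, adjusted p = 0.574), and 17 of the 20 pairs differed. With these factors brain exceeded lung by less, 1.15 in C3H and 0.84 in C57 mice (permutation tests, adjusted p = 0.000222 and 0.0001). Each tissue was deposited as a table of its own, so that tissue and table cannot be told apart.

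**Figure D1:**
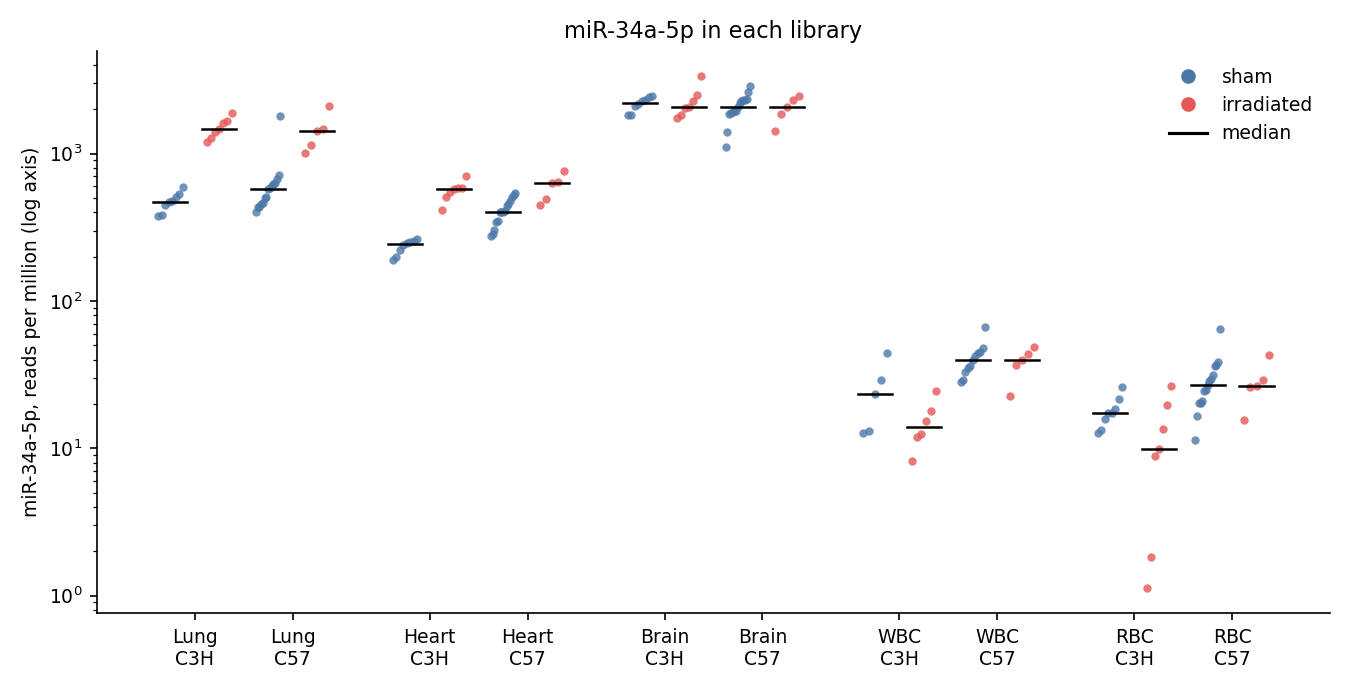
MiR-34a-5p in each of the 167 libraries, in RPM on a log axis, by tissue, strain and irradiation, with 1 point per mouse and a line at each group median. The irradiated C3H lung and heart points lie above every sham irradiated point of their strain and tissue, while the brain and blood groups overlap.

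In lungs of C3H mice, miR-34a-5p rose 2.96-fold after irradiation and the groups did not overlap. Sham irradiated lungs ranged from 378 to 594 RPM with a median of 471 RPM (n = 8, 1271 to 2185 reads of miR-34a-5p a library), and irradiated lungs from 1191 to 1892 RPM with a median of 1460 RPM (n = 7, 3808 to 7255 reads). All 7 irradiated lungs lay above every sham irradiated one, and the rank of miR-34a-5p within a library moved from between 67 and 74 to between 47 and 52. On the quantile normalised log2 scale the difference was 1.57 (SE 0.16, 95% confidence interval 1.25 to 1.88, limma adjusted p = 6.41e-10). In C3H lungs 16.3% of the 350 miRNAs tested were called higher and 17.1% lower, and miR-34a-5p was the 7th by fold change and the 3rd by p-value. Within letter A and within letter B the difference was 1.59 and 1.54.

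Scaling moved the lung results as a whole. The median difference of all miRNAs in C3H lungs was -0.08 after quantile normalisation and 0.27 when reads were scaled by library size alone, and the calls moved from 57 higher and 60 lower to 95 higher and 21 lower. Relative to that median, miR-34a-5p was higher by 1.65 and by 1.40. In C57 lungs the median moved from -0.05 to 0.12, the calls from 33 higher and 25 lower to 60 higher and 12 lower, and miR-34a-5p relative to the median from 1.22 to 1.14.

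MiR-34a-5p also rose in lungs of C57 mice, where a single sham irradiated library overlapped the irradiated group. Sham irradiated lungs had a median of 573 RPM (n = 15) and ranged from 399 to 1793 RPM, the highest value being replicate 1 and the next one 717 RPM. The 5 irradiated lungs had 1001, 1471, 1140, 1422 and 2107 RPM. All 5 were above the median of the sham irradiated lungs, and 1 of them, the female, was above every sham irradiated lung. The difference was 1.17 (SE 0.15, 95% confidence interval 0.86 to 1.48, limma adjusted p = 4.14e-07), and the ratio of mean RPM was 2.28, against 9.43% of the 350 miRNAs called higher and 7.14% called lower in C57 lungs. It was 1.25 without sham irradiated replicate 1, and 0.91 in males alone. Within letter B it was 1.43. Within letter A, with 2 irradiated lungs, it was 0.84 and was not called (adjusted p = 0.160), and 1.00 (adjusted p = 0.00647) when replicate 1 was also left out.

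The sham irradiated C57 lung replicate 1 differed from its group in other miRNAs too. It had 1120 RPM of miR-206-3p, a skeletal muscle miRNA, against 0.341 to 119 RPM in the other 14, and 544 RPM of miR-205-5p, an epithelial miRNA, against 23.7 to 119 RPM. Irradiated C57 lung replicate 1 was also high in both, with 1391 RPM of miR-206-3p and 305 RPM of miR-205-5p, against at most 5.89 and 85.0 RPM in the other 4, and it had the lowest miR-34a-5p of the irradiated lungs. The C57 lung difference was 1.27 without that library. In sham irradiated replicate 1, 3 of the 5 leukocyte markers were above all other sham irradiated C57 lungs. Their sum, 8303 RPM, lay within the 2393 to 9748 RPM of the others. The summed endothelial markers, miR-126a-5p and miR-126a-3p, had 212137 RPM against 264323 to 451412 RPM. The cardiac muscle sum was above the others (7697 against 2724 to 6186 RPM). The ciliated epithelium and mesenchymal sums, 6104.3 and 48362 RPM, were just below the lowest of the others, 6104.6 and 48629.5 RPM. The part of these in its miR-34a-5p level was not tested.

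The change in C3H lungs was not shown to differ from that in C57 lungs (difference of the changes 0.40, 95% confidence interval -0.04 to 0.84, limma adjusted p = 0.406), and it was 0.31 without sham irradiated C57 replicate 1. In that comparison 0.286% of the miRNAs tested, 1 miRNA, were called. Cell type markers moved in C3H lungs alongside miR-34a-5p: the 4 of 4 cardiac muscle markers fell, with sums of 2569 to 5226 RPM in irradiated and 4759 to 7515 RPM in sham irradiated lungs, and 1 of 2 endothelial markers, miR-126a-5p, fell, with marker sums of 297017 to 390147 RPM against 380361 to 444378 RPM. Of the 5 epithelial markers miR-200b-3p fell, and of the 5 mesenchymal markers miR-199a-3p rose. These counts stand beside the 16.3% of all miRNAs called higher and 17.1% called lower in C3H lungs. MiR-145a-5p, another mesenchymal marker, differed by -0.46 (limma adjusted p = 0.0513) and was called lower in 10 of 18 alternatives, among them edgeR and DESeq2. In C57 lungs 1 of 4 cardiac markers, miR-499-5p, and 1 of 5 mesenchymal markers, miR-145a-5p, fell, and 1 of 3 neuronal markers, miR-9-5p, rose, beside 9.43% of all miRNAs called higher and 7.14% lower. None of the 5 leukocyte markers was called in lungs of either strain, but their summed level was 5564 to 6829 RPM in irradiated and 2393 to 9748 RPM in sham irradiated C57 lungs. The part of these shifts in the miR-34a-5p change was not tested.

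In hearts of C3H mice, miR-34a-5p rose 2.41-fold, again without overlap. Sham irradiated hearts had 189 to 261 RPM with a median of 243 RPM (n = 8), and irradiated hearts had 414 to 702 RPM with a median of 571 RPM (n = 7). The difference was 1.27 (SE 0.16, 95% confidence interval 0.95 to 1.59, limma adjusted p = 1.47e-07), against 10.3% of the 312 miRNAs called higher and 6.41% called lower. Within letters A and B it was 1.41 and 1.12. In irradiated replicate 3 the cardiac muscle markers summed to 50690 RPM, against 216176 to 291001 RPM in sham irradiated C3H hearts, and the difference was 1.25 without that library. Of the 4 cardiac muscle markers miR-499-5p fell, and of the 5 mesenchymal markers miR-145a-5p fell, with mesenchymal sums of 43820 to 71467 RPM in irradiated and 41644 to 81090 RPM in sham irradiated C3H hearts. Of the 4 erythrocyte markers miR-451a and miR-144-5p fell in C3H hearts, with sums of 331 to 1722 RPM in irradiated and 608 to 2740 RPM in sham irradiated hearts, and of the 5 leukocyte markers miR-150-5p fell in hearts of both strains. The part of these in the miR-34a-5p change was not tested.

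The difference in C57 hearts was smaller and was not called. The 5 irradiated hearts had 629, 491, 638, 447 and 762 RPM, and the sham irradiated hearts 274 to 539 RPM with a median of 404 RPM (n = 15). All 5 irradiated hearts were above the median of the sham irradiated hearts, and 3 were above every one of them. The difference was 0.41 (SE 0.16, 95% confidence interval 0.08 to 0.73, limma adjusted p = 0.153), against 3.21% of the miRNAs called higher and 0.321% called lower, and it was called when reads were scaled by library size alone (0.54, adjusted p = 0.0165). Within letters A and B it was 0.18 and 0.65. The changes of the strains in the heart differed by 0.86 (95% confidence interval 0.41 to 1.32), which did not pass the adjusted threshold (limma adjusted p = 0.0532). In this comparison limma called 0% of the 312 miRNAs, with 51 at an unadjusted p under 0.05, edgeR called 0 and DESeq2 called 4. MiR-34a-5p itself was called in 2 of 22 alternatives, with DESeq2 and without irradiated C57 replicate 1 (limma adjusted p = 0.0232).

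Lung and heart of the same strain lay in the same field, and their changes could be compared in a joint fit. In C57 mice the miR-34a-5p change in lung exceeded that in heart by 0.80 (95% confidence interval 0.34 to 1.26, limma adjusted p = 0.0226), in a comparison with 5.61% of 374 miRNAs called, and it was 0.88 without sham irradiated lung replicate 1. The call was lost in 5 of 15 alternatives. These were edgeR (0.61, adjusted p = 0.279), TMM factors (0.62, adjusted p = 0.207) and library size alone (0.72, adjusted p = 0.0995). It was also lost without irradiated lung replicate 5 (0.62, adjusted p = 0.141) and without irradiated heart replicate 2 (0.77, adjusted p = 0.0504). In C3H mice the difference was 0.30 (95% confidence interval -0.17 to 0.77, limma adjusted p = 0.497), with 6.68% of the miRNAs called, and its sign turned with TMM factors (-0.17).

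**Figure D2:**
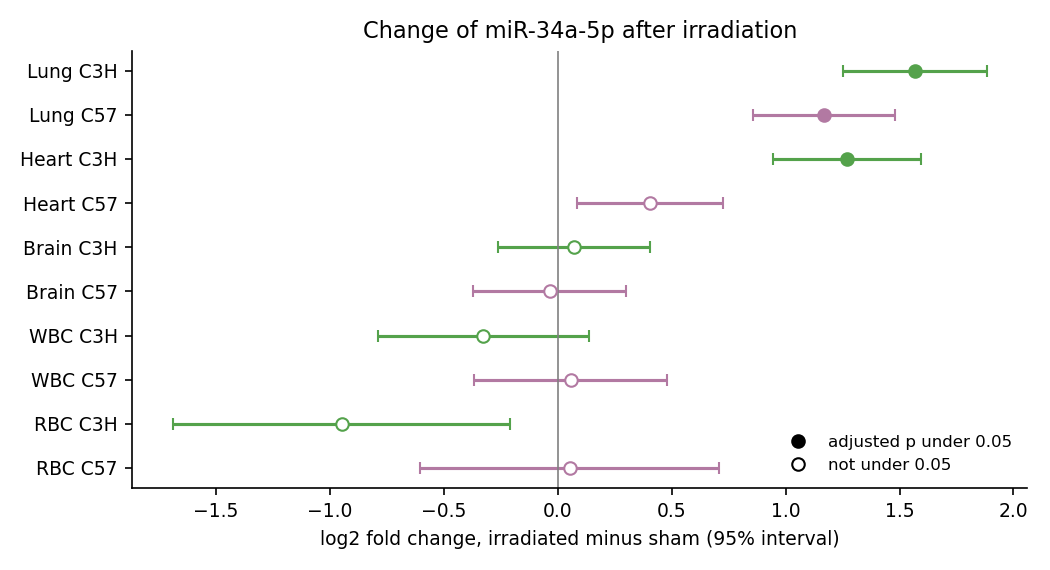
Irradiated minus sham irradiated difference of miR-34a-5p in each tissue and strain, on the quantile normalised log2 scale, with 95% confidence intervals from limma. The intervals of C3H lung (1.57), C57 lung (1.17) and C3H heart (1.27) lie well above 0, whereas those of the brain and WBC span 0.

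No change of miR-34a-5p was called in the brain, which lay outside the field. Sham irradiated brains had 1828 to 2450 RPM in C3H (median 2218 RPM, n = 8) and 1113 to 2873 RPM in C57 mice (median 2086 RPM, n = 15). The 7 irradiated C3H brains had 1739 to 3345 RPM with a median of 2067 RPM, and the 5 irradiated C57 brains 1422 to 2470 RPM with a median of 2074 RPM, so the groups overlapped in both strains. The difference was 0.07 in C3H (95% confidence interval -0.26 to 0.40, limma adjusted p = 0.997) and -0.04 in C57 mice (95% confidence interval -0.37 to 0.30, adjusted p = 0.932). The C3H difference was 0.22 within letter A and -0.037 within letter B, and the C57 difference was -0.19 and 0.028. Of the 433 miRNAs tested 0% were called by limma in either strain, with 9 in C3H and 53 in C57 at an unadjusted p under 0.05. In C57 brains edgeR called 3 and DESeq2 9 miRNAs, and in C3H brains each called 0. The sham irradiated C57 brain libraries 11 and 12 had the lowest miR-34a-5p of their group (1404 and 1113 RPM, the other 13 between 1848 and 2873 RPM) and epithelial marker sums of 41037 and 35848 RPM against 172 to 20622 RPM. Without them the C57 difference was -0.15 (limma adjusted p = 0.669).

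In WBC miR-34a-5p was scarce, and no change was called. The sham irradiated C3H samples had 29.1, 23.6, 13.2, 12.7 and 44.0 RPM, and the 6 irradiated ones 8.25 to 24.6 RPM with a median of 13.9 RPM. The irradiated C57 samples had 48.7, 36.5, 39.9, 43.8 and 22.6 RPM, against 28.1 to 67.1 RPM in the 11 sham irradiated ones. The groups overlapped in both strains, with 3 of 6 irradiated C3H samples and 1 of 5 irradiated C57 samples below every sham irradiated one. The difference was -0.33 in C3H (95% confidence interval -0.79 to 0.14, limma adjusted p = 0.782) and 0.06 in C57 mice (95% confidence interval -0.37 to 0.48, adjusted p = 0.991). The C3H difference was -0.16 within letter A and -0.46 within letter B, and the C57 difference was 0.044 and 0.074, and 0.10 without sham irradiated replicate 2. Of the 291 miRNAs tested limma called 0% in either strain, with 20 in C3H and 12 in C57 at an unadjusted p under 0.05, and edgeR and DESeq2 called 0.

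In RBC of C3H mice several irradiated libraries had low levels, and no change was called. The 7 irradiated samples had 13.5, 19.6, 26.4, 9.89, 8.84, 1.82 and 1.14 RPM, against 12.6 to 26.2 RPM in the 8 sham irradiated ones. The last 4 of them, replicates 4 to 7, were below every sham irradiated sample, and all 4 had the letter B. The difference of -0.95 was not called (95% confidence interval -1.69 to -0.21, limma adjusted p = 0.213). It was 0.068 within letter A, -1.67 within letter B (adjusted p = 0.0625) and -0.31 without replicates 6 and 7 (adjusted p = 0.993). These 2 libraries also had less miR-21a-5p (8444 and 6375 RPM, the other 5 irradiated between 18357 and 38006 RPM), lower leukocyte marker sums (10917 and 8203 RPM, the other 5 between 15922 and 44771 RPM) and lower epithelial marker sums (106 and 135 RPM, the other 5 between 230 and 640 RPM). Their erythrocyte marker sums were 28566.2 and 31508.5 RPM, the other 5 between 29011.3 and 85713.4 RPM. In each, 3 of 4 erythrocyte markers were below the other 5 libraries and 1 was above them. Of the 5 leukocyte markers, library 6 had 1 above and 1 below the other 5 libraries, and library 7 had 3 below. Of the 5 epithelial markers, library 6 had 1 below, and library 7 had 1 above and 1 below. The part of these in their miR-34a-5p level was not tested. In C57 RBC the 5 irradiated samples had 42.8, 26.7, 26.3, 29.0 and 15.6 RPM, the sham irradiated ones 11.4 to 64.6 RPM, and the difference was 0.05 (95% confidence interval -0.60 to 0.71, limma adjusted p = 0.992), with 0.42 within letter A, -0.19 within letter B and 0.15 without sham irradiated replicate 3. Of the 229 miRNAs tested limma called 0% in either strain, with 43 in C3H and 14 in C57 at an unadjusted p under 0.05. In C3H RBC edgeR called 12 and DESeq2 22 miRNAs, and in C57 RBC each called 1.

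Among sham irradiated mice the strains differed in the heart. Sham irradiated C3H hearts had 233 ± 27.5 RPM (SD, n = 8) and sham irradiated C57 female hearts 427 ± 67.2 RPM with a range of 342 to 525 RPM (SD, n = 7), so the groups did not overlap. The difference on the log2 scale was -1.0 (95% confidence interval -1.31 to -0.69, limma adjusted p = 9.65e-06), in a comparison in which 31.6% of 367 miRNAs were called. Irradiated C3H hearts (414 to 702 RPM) thus reached levels that overlapped those of the sham irradiated C57 hearts (274 to 539 RPM). In lung, by contrast with its seed family described below, miR-34a-5p differed by -0.16 (adjusted p = 0.549), where 14.4% of 397 miRNAs were called. It differed by 0.22 in brain, 0.33 in WBC (-0.50 with library size alone) and -0.06 in RBC, and was not called there (limma adjusted p = 0.352, 0.348 and 0.920). Without the libraries that stood apart it was -0.16 in lung, -0.068 in brain, 0.33 in WBC and -0.06 in RBC, and was not called in any of them.

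A sex difference among sham irradiated C57 mice was not called by limma in lung, heart or brain. The difference of females minus males was -0.28 in lung (95% confidence interval -0.58 to 0.02), -0.04 in brain (95% confidence interval -0.37 to 0.29) and 0.32 in the heart (95% confidence interval 0.01 to 0.63, limma adjusted p = 0.0896), where 34.9% of 367 miRNAs were called. The heart difference was called with edgeR (0.53, adjusted p = 0.00893). Without the libraries that stood apart the difference was -0.13 in lung and 0.24 in brain (limma adjusted p = 0.466 and 0.173). In RBC females were lower, with 11.4 to 26.9 RPM (n = 7) against 24.6 to 64.6 RPM in males (n = 8), a difference of -0.88 (95% confidence interval -1.47 to -0.29, limma adjusted p = 0.0347, 14.4% of 278 miRNAs called) that was not called with library size alone (-0.82, adjusted p = 0.133), nor without replicate 3, the male with 64.6 RPM (-0.75, adjusted p = 0.0786). In WBC, 4 females had 28.1 to 34.98 RPM and 7 males 36.5 to 67.1 RPM, without overlap, but the sign depended on the scaling: the difference was 0.20 after quantile normalisation (limma adjusted p = 0.597) and -0.54 with library size alone. It was 0.29 (limma adjusted p = 0.492) without replicate 2, the male with 67.1 RPM.

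The 3p strand was close to the detection limit. MiR-34a-3p was found in 26 of 167 libraries, with at most 3 reads in any, and its 33 reads in total stood against 385716 reads of miR-34a-5p. This is 0.00855% of the reads of both strands (exact Clopper-Pearson 95% confidence interval 0.00589 to 0.0120%). The interval covers counting error only, since the counts are of reads, which are not stated to be independent molecules. By tissue there were 18 reads in 14 of 35 brain libraries, 12 in 9 of 35 lung libraries, 2 in 2 of 35 heart libraries and 1 in 1 of 27 WBC libraries. In RBC 0 reads were found beside 2870 of the 5p strand, which allows a share of up to 0.105% if 3 reads are taken as the limit of a count of 0 (the exact Clopper-Pearson interval reaches 0.128%).

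MiR-34a-3p did not pass the filter on low counts in any tissue, so its change was not tested. The share of 3p reads was 0.0113% in sham irradiated lungs (5 reads beside 44340 of the 5p strand, interval 0.00366 to 0.0263%) and 0.0103% in irradiated lungs (7 beside 67948, interval 0.00414 to 0.0212%), so that a difference was not detectable at this depth. The ratio of the strands in a library, computed as log2 of the counts plus 0.5, differed after irradiation in 1 of 10 tissue and strain groups, the C3H heart (by 1.51, exact permutation adjusted p = 0.00311). As 0 reads of miR-34a-3p were found in any of the 15 C3H hearts, that ratio followed the count of miR-34a-5p alone and held no information on the 3p strand. With 0 to 3 reads of miR-34a-3p a library, the ratio followed mainly the count of miR-34a-5p and the pseudocount in every tissue.

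MiR-34a-5p was a minor member of its seed family in lung and the main one in heart. All members with a sequence have 21 to 23 bases, and their RPM are compared without a length correction. In lung the family was mostly miR-34c-5p, which made up 80.4% of its reads in sham irradiated C3H and 82.3% in C57 mice, and miR-34a-5p made up 10.6 ± 1.93% (SD, n = 8) and 6.94 ± 4.87% (SD, n = 15). In heart it had 72.4 ± 9.85% in C3H and 88.3 ± 4.86% in C57 mice. It had 62.9 and 55.7% of the family in brain, 56.6 and 70.6% in WBC and 53.9 and 61.0% in RBC of C3H and C57 mice. In blood cells miR-449a-5p was the next member, with 34.6 and 23.8% in WBC and 37.4 and 33.1% in RBC, and miR-449b had 0 reads in every library.

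**Figure D3:**
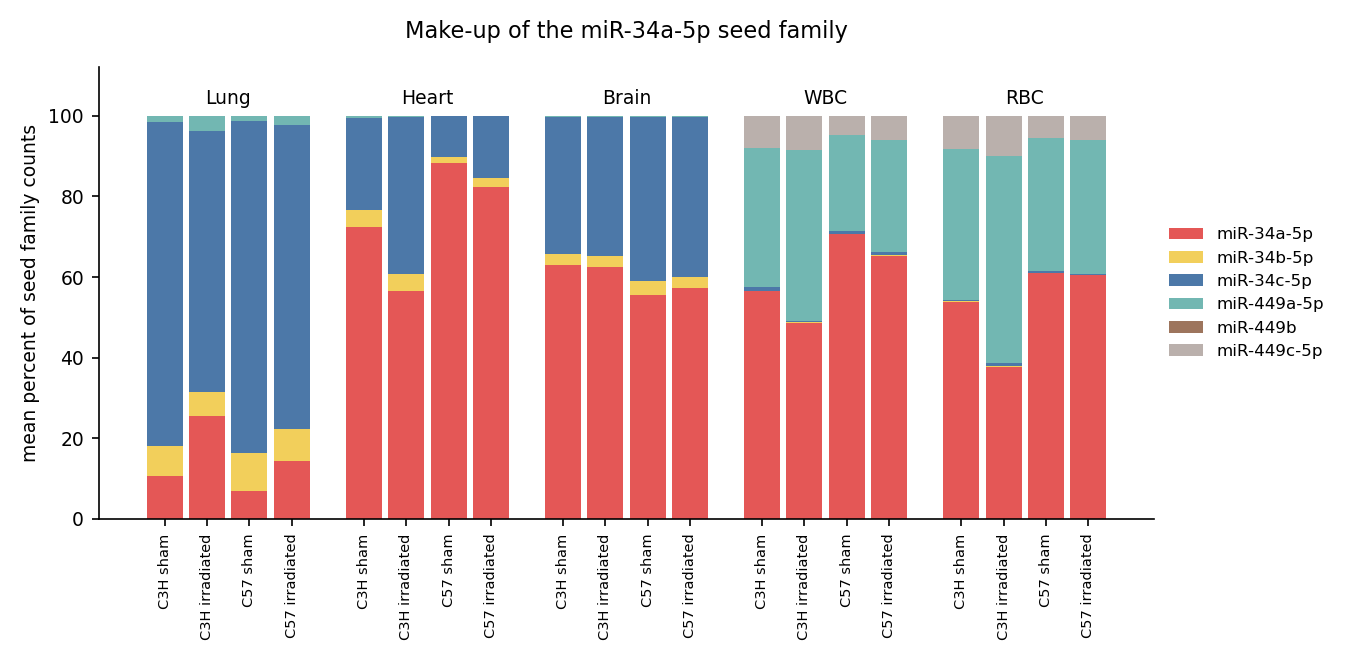
Make-up of the seed family of miR-34a-5p as stacked bars, with the group mean percent of the summed family reads for each member, by tissue, strain and irradiation. In C3H lung the mean share of miR-34a-5p was 25.5% in irradiated and 10.6% in sham irradiated mice. In hearts it was lower in irradiated mice, with 56.6 against 72.4% in C3H and 82.2 against 88.3% in C57 mice.

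After irradiation the share of miR-34a-5p rose in C3H lungs. It was 25.5 ± 3.23% (SD, n = 7) against 10.6 ± 1.93% (SD, n = 8), without overlap (exact permutation adjusted p = 0.00311 over the 10 tissue and strain groups). In C57 lungs it was 14.3 ± 4.29% (SD, n = 5) against 6.94 ± 4.87% (SD, n = 15), with 5 of 5 above the sham irradiated median, and did not pass the adjustment (exact permutation adjusted p = 0.0522). The highest share in C57 lungs was that of sham irradiated replicate 1, at 23.3%, above the 9.45 to 21.1% of the irradiated lungs, and the other 14 sham irradiated lungs had 3.52 to 10.6%. Without replicate 1 the sham irradiated lungs had 5.77 ± 1.87% (SD, n = 14), 4 of 5 irradiated lungs lay above all of them, and the difference passed (exact permutation adjusted p = 0.00172). In C3H hearts it was 56.6 ± 10.9% against 72.4 ± 9.85%, and in C57 hearts 82.2 ± 2.93% against 88.3 ± 4.86% (exact permutation adjusted p = 0.0522 for each). Sham irradiated C3H heart replicate 3 had the lowest share of its group, 50.9% against 68.2 to 81.7%, with leukocyte marker sums of 10253 RPM against 1065 to 3355 RPM and epithelial marker sums of 942 RPM against 87.4 to 426 RPM in the other 7. Without it the C3H heart share passed (56.6 against 75.5%, exact permutation adjusted p = 0.0175). Its miR-34a-5p level, 197 RPM, lay within the 189 to 261 RPM of the other 7. The summed strands of miR-34b, miR-34c and miR-449a-5p had 200 RPM there, against 61.9 to 110 RPM. These include other members of the family, so the low share went with a high level of those members. The part of the leukocyte and epithelial markers in its share was not tested. As log2 odds in place of percent, with all libraries, the C57 lung, C3H heart and C57 heart also passed, with exact permutation adjusted p-values of 0.0290, 0.0403 and 0.0403. The other 6 groups did not pass with either measure. Without lung replicate 1 the C3H heart, whose own libraries were the same, passed too (exact permutation adjusted p = 0.0497), so that 3 groups passed in place of 1.

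In lung, the members that share the seed did not move together. MiR-34c-5p, the most abundant one, had 2814 to 4421 RPM in sham irradiated and 2289 to 5159 RPM in irradiated C3H lungs, and differed by -0.03 in C3H and -0.09 in C57 lungs (limma adjusted p = 0.903 and 0.721). MiR-34b-5p, from the same primary transcript as miR-34c-5p, differed by -0.25 and -0.24 (adjusted p = 0.520 and 0.522). MiR-34c-3p differed by 0.30 and -0.57 (adjusted p = 0.563 and 0.2496). None of the 4 strands of miR-34b and miR-34c was called in lungs of either strain, where 16.3% (C3H) and 9.43% (C57) of all miRNAs were called higher and 17.1% and 7.14% lower. MiR-34b-3p, at -0.45 in C57 lungs, was called lower there within letter B (-0.78, adjusted p = 0.0283). The summed family had 3548 to 5495 RPM in sham irradiated and 3845 to 7534 RPM in irradiated C3H lungs, so that its groups overlapped where those of miR-34a-5p did not.

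Of the miR-449 strands, the 3 that could be tested rose in C3H lungs. MiR-449a-5p had 33.7 to 93.8 RPM in sham irradiated and 125 to 303 RPM in irradiated C3H lungs, a difference of 1.51 (SE 0.26, limma adjusted p = 3.06e-05). MiR-449c-5p, at 0.812 to 3.32 RPM and 3.74 to 16.04 RPM, also rose by 1.51 (SE 0.36, adjusted p = 0.00161). MiR-449a-3p rose by 1.59 (adjusted p = 0.0426), a call that was lost without any 1 of irradiated replicates 3, 4, 6 and 7 and within letter B. In C57 lungs the 5 irradiated mice had 140, 118, 235, 204 and 439 RPM of miR-449a-5p and the sham irradiated ones 60.8 to 198 RPM. That difference of 0.76 (adjusted p = 0.0326) was lost in 8 of 19 alternatives, among them the omission of irradiated replicates 3, 4 or 5, and was -0.04 within letter A. MiR-449c-5p differed by 0.81 in C57 lungs (adjusted p = 0.0545), was called in 7 of 18 alternatives, among them edgeR, DESeq2 and TMM factors, and was -0.14 within letter A. MiR-449a-3p differed by 0.88 in C57 lungs (limma adjusted p = 0.237) and was called in 6 of 15 alternatives, among them edgeR and DESeq2.

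Sham irradiated mice of the 2 strains also differed in other family members. The difference of C3H minus C57 female lungs on the log2 scale was -1.03 for miR-34c-5p (limma adjusted p = 1.70e-05), -1.17 for miR-34b-5p (adjusted p = 0.00134) and -1.01 for miR-449a-5p (adjusted p = 0.00354), whereas miR-34a-5p, at -0.16, did not pass. In the heart it was miR-34a-5p that was lower in C3H females, and miR-34c-5p and miR-34b-5p differed by 0.32 and 0.72 (adjusted p = 0.420 and 0.213).

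In C3H hearts the strands of miR-34b and miR-34c rose, as did miR-34a-5p. MiR-34c-5p had 50.7 to 141.4 RPM in sham irradiated and 158 to 627 RPM in irradiated C3H hearts, a difference of 2.43 (SE 0.29, limma adjusted p = 5.55e-08), and the lowest irradiated value was that of replicate 3, whose cardiac muscle markers were low. Its partner strand miR-34c-3p rose by 2.80 (adjusted p = 4.03e-06), miR-34b-5p by 1.89 (adjusted p = 0.000292) and miR-34b-3p by 2.21 (adjusted p = 3.14e-09). Of these, the call of miR-34b-5p was lost within letter A (0.88, adjusted p = 0.288). The summed family had 268 to 387 RPM in sham irradiated and 712 to 1291 RPM in irradiated C3H hearts.

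Smaller values were seen in C57 hearts. MiR-34c-5p had 122, 104, 143.2, 59.1 and 132 RPM in the 5 irradiated and 22.9 to 85.5 RPM in the 15 sham irradiated hearts, and rose by 1.25 (SE 0.30, limma adjusted p = 0.00734). MiR-34b-3p rose by 1.08 (adjusted p = 0.00537), and miR-34b-5p and miR-34c-3p differed by 1.28 and 0.56 (adjusted p = 0.0537 and 0.617), of which the former was called in 4 of 16 alternatives, with edgeR, DESeq2, TMM factors and 1 strain at a time. Within a single letter neither call held, although the differences stayed between 0.96 and 1.31. MiR-449a-5p and miR-449c-5p were at most 6.77 RPM in any heart and were not tested there.

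The contrast between lung and heart was itself tested. In C3H mice the change in lung minus that in heart was -2.60 for miR-34c-5p (95% confidence interval -3.27 to -1.93, limma adjusted p = 1.24e-08), -2.13 for miR-34b-5p (adjusted p = 0.00106) and 0.30 for miR-34a-5p. In C57 mice it was -1.43 for miR-34c-5p (adjusted p = 0.00653), -1.58 for miR-34b-5p (adjusted p = 0.0263) and 0.80 for miR-34a-5p. MiR-34b and miR-34c serve here also as the markers of ciliated epithelium, of which miR-449a-5p was at most 5.94 RPM in C3H hearts. Epithelial markers, the miR-200 family and miR-141-3p, were not called in C3H hearts, with sums of 30.7 to 237 RPM in irradiated and 87.4 to 942 RPM in sham irradiated hearts. The part of ciliated cells in the heart values was not tested.

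**Figure D4:**
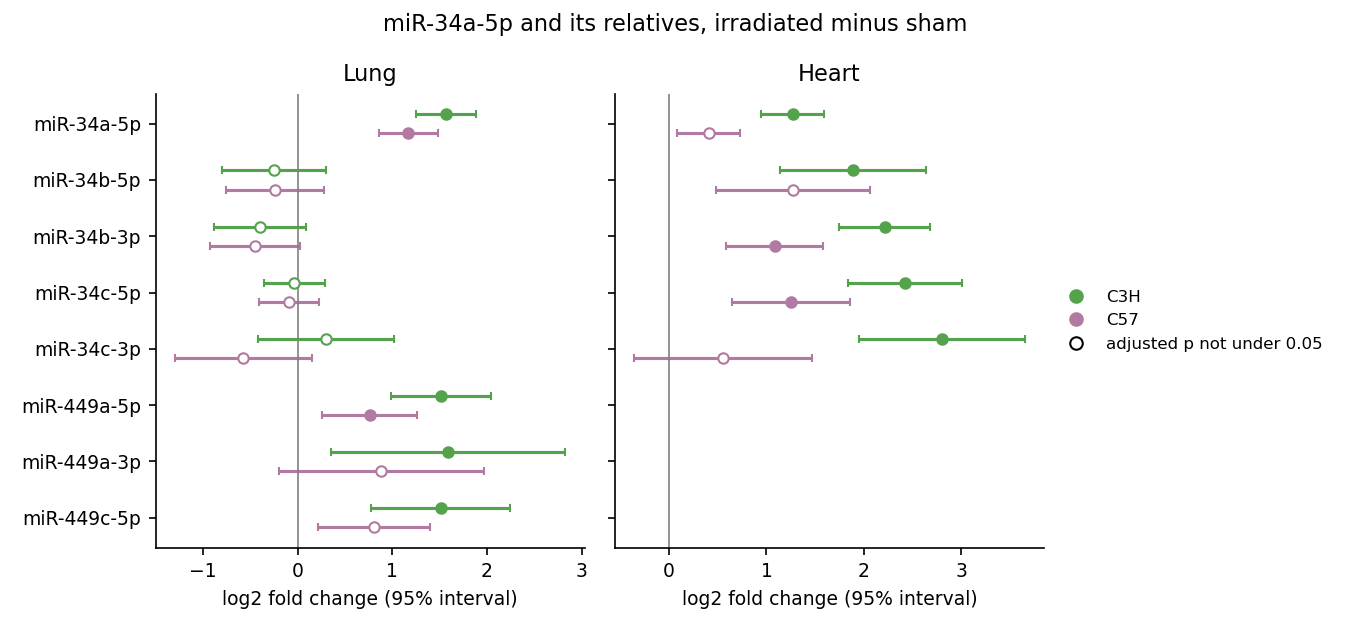
Irradiated minus sham irradiated difference of miR-34a-5p and of the strands of its seed family in lung and heart of both strains, on the quantile normalised log2 scale, with 95% confidence intervals. The intervals of miR-34a-5p lie above 0 in lungs and hearts of both strains, although the C57 heart (0.41) was not called after adjustment, the intervals of all 4 strands of miR-34b and miR-34c in lung span 0, and their points lie above 0 in heart, and miR-449a-5p and miR-449c-5p lie above 0 in C3H lung.

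Other miRNAs reported to be transcribed or processed under p53 were examined as a list of 16 strands, which holds the 4 strands of miR-34b and miR-34c. In C3H lungs 1 of 16 rose and 2 fell, and the median difference was -0.18 against -0.08 over all miRNAs tested. MiR-215-5p, which promotes cell cycle arrest, rose by 0.92 (limma adjusted p = 0.0141), and its relatives miR-192-5p and miR-194-5p fell by 0.67 and 0.73 (adjusted p = 0.000393 and 0.00191). MiR-192-5p shares the precursor transcript of miR-194 and nearly the whole sequence of miR-215-5p, so that reads could be divided between these 2 in counting. The miR-215-5p call was lost within letter A (0.57, adjusted p = 0.376), the miR-194-5p and miR-192-5p calls within letter B, and the miR-194-5p call also with library size alone (-0.36, adjusted p = 0.146). MiR-145a-5p, also on the list, differed by -0.46 (limma adjusted p = 0.0513) and was called lower in 10 of 18 alternatives.

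In C57 lungs 1 of 16 rose, miR-215-5p by 0.66 (limma adjusted p = 0.0326), and 2 fell, miR-192-5p by 0.42 (adjusted p = 0.0327) and miR-145a-5p, a smooth muscle miRNA, by 0.53 (adjusted p = 0.0475). These 3 calls were lost in 8 of 18, 10 of 19 and 12 of 19 alternatives, among them the omission of single irradiated mice. MiR-194-5p differed by -0.48 (adjusted p = 0.0568) and was called lower in 5 of 19 alternatives, among them edgeR, DESeq2 and TMM factors. The median of the list was -0.21 against -0.05 over all miRNAs. These counts stand beside the 16.3% and 17.1% of all miRNAs called higher and lower in C3H lungs and the 9.43% and 7.14% in C57 lungs, and miR-34a-5p itself is not a member of the list.

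In C3H hearts 4 of 16 rose, the strands of miR-34b and miR-34c, and 2 fell, mmu-miR-145a-5p by 0.89 (limma adjusted p = 0.0250) and miR-194-5p by 0.62 (adjusted p = 0.0117). The median of the list was -0.27 against -0.03 over all miRNAs. These counts stand beside 10.3% of all miRNAs called higher and 6.41% lower. The miR-145a-5p call was lost in 5 of 18 alternatives, among them the omission of irradiated replicate 3 (-0.74, adjusted p = 0.0875) and letter B alone (-0.38, adjusted p = 0.656). The miR-194-5p call was lost in 3 of 18, within letter A, within letter B and in a fit of 1 strain at a time. In C57 hearts 2 of 16 rose, miR-34c-5p and miR-34b-3p, and 0 fell, with a median of 0.10 against 0.00, beside 3.21% of all miRNAs called higher and 0.321% lower. In brain 0 of the 15 strands tested were called, in WBC 0 of 11 and in RBC 0 of 10, in either strain, as 0% of all miRNAs were called there.

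**Figure D5:**
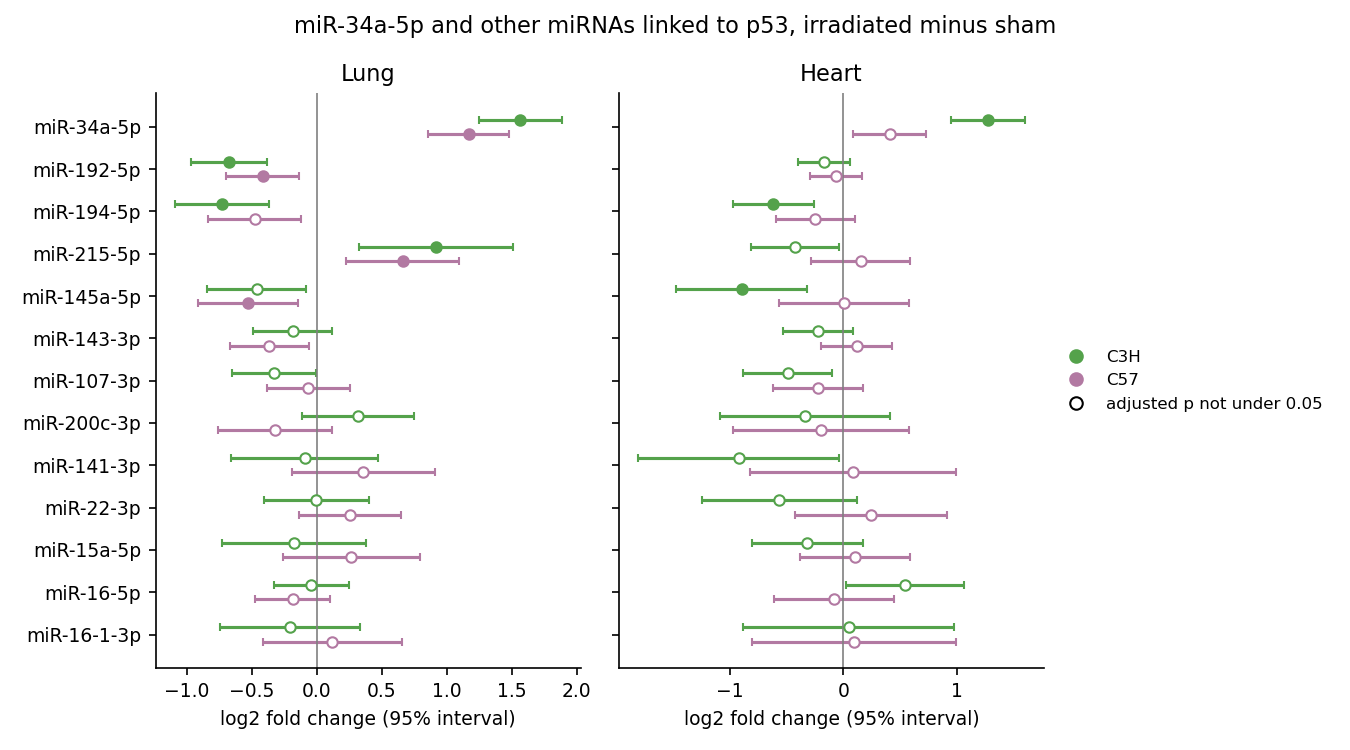
Irradiated minus sham irradiated difference of miR-34a-5p and of the strands of the p53 list other than miR-34b and miR-34c in lung and heart of both strains, on the quantile normalised log2 scale, with 95% confidence intervals and filled points for adjusted p under 0.05. MiR-34a-5p, the first entry, lies to the right of 0 at 1.57 and 1.17 in lung, miR-215-5p lies there at 0.92 and 0.66, and miR-192-5p lies to the left of 0 at -0.67 and -0.42.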

How the data were processed

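Small RNA libraries of single mice were made and sequenced by the authors, who aligned trimmed reads to mouse miRNAs (build mm10 per the labels). The deposited tables hold raw read counts of 1915 miRNAs, 1 table per tissue, with no normalisation, and 0 columns named no sample. How reads matching several miRNAs were assigned is not given in the sources used here. Groups came from the sample labels. Each library of a group counted as 1 replicate, since the titles give each a mouse of its own, and no libraries of a group held the same counts (chi-square per degree of freedom between libraries of a group at least 15.5).

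Counts were filtered with filterByExpr (minimum count 10, minimum total 15), scaled by library size, log2 transformed, quantile normalised and fitted with voom and limma 3.58.1 in R 4.3.3 for all miRNAs of a tissue, with strain by irradiation as groups and Benjamini-Hochberg adjustment over all miRNAs tested. Fits for the sham irradiated strain and sex comparisons also split C57 by sex, and lung and heart were compared in a joint fit. Single values were compared by two-sided permutation tests in scipy 1.17.1, exact where a group had fewer than 10 libraries and otherwise with 100000 resamples. RPM used the total of each library (1794995 to 7865102 reads), and strand ratios a pseudocount of 0.5. Fits were tested on simulated data. Alternatives were edgeR 4.0.16, DESeq2 1.42.0, TMM, library size alone, other filters, letter and sex, the mouse as block, and omission of each mouse of groups with 7 or fewer. Those that left out libraries standing apart were chosen after seeing the data. Named miRNAs were both strands of miR-34a, its seed family with their partner strands, the p53 list, and those of most similar pattern, ranked by Pearson's r. Members and lists were chosen with earlier results of these data known. Sequences were from RefSeq.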

Additional observations from a re-analysis of the deposited data

Results flagged for a closer look

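Dixon's test was applied to 15 groups of 4 to 10 libraries for 2 quantities, the RPM of miR-34a-5p and its percent of the seed family, 30 tests in all, and chance flags about 1 in 20 groups. It marked 2 libraries, both for the percent of the family. In sham irradiated C3H heart replicate 3, miR-34a-5p made up 50.9% of the family, against 68.2 to 81.7% in the other 7. In irradiated C3H brain replicate 2 it made up 79.1%, against 55.6 to 65.4% in the other 6. In C57 mice the change of miR-34a-5p after irradiation differed between the organs, as lung minus heart was 0.80 on the log2 scale in the joint fit (limma adjusted p = 0.0226). The call was lost in 5 of 15 alternatives, with edgeR, TMM factors, library size alone and the omission of irradiated lung replicate 5 or heart replicate 2 (adjusted p up to 0.279).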

How the results depend on the processing

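The C3H lung and C3H heart differences of miR-34a-5p kept their direction and their call in all 18 alternatives each (1.36 to 1.67 and 1.12 to 1.41). In C57 lung the call held in 18 of 19 and was lost within letter A (0.84). Changes of call elsewhere were the C57 heart with library size alone (0.54), the heart difference between strains with DESeq2 (0.92), C57 sham sex in heart with edgeR (0.53) and in RBC with library size alone (-0.82) and without replicate 3 (-0.75), and C57 lung minus heart with edgeR (0.61), library size alone (0.72) and TMM (0.62). Signs turned, without a call, for C3H lung minus heart with edgeR and TMM (both -0.17), C57 brain with DESeq2 (0.011) and within letter B (0.028), C3H brain within letter B (-0.037), the brain difference between strains within letter B (-0.066), sex in brain with edgeR (0.16), C57 WBC with DESeq2 (-0.022), TMM (-0.0029), library size alone (-0.097) and a filter of 10 counts in every library (-0.012), sex in WBC with edgeR (-0.00045) and library size alone (-0.54), strain in WBC with library size alone (-0.50), C57 RBC with DESeq2 (-0.019), sex as covariate (-0.18), males alone (-0.13) and letter B (-0.19), C3H RBC within letter A (0.068), and, without sham irradiated C57 brain replicates 11 and 12, the brain differences of strain (-0.068) and sex (0.24). The cause was not tested.

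Leaving out 1 mouse at a time gave 0.79 to 0.92 for the heart difference between strains (called, adjusted p = 0.0232, without irradiated C57 replicate 1), 0.62 to 0.92 for C57 lung minus heart, -0.14 to 0.059 for C57 brain, -0.039 to 0.13 for C3H brain, -0.0020 to 0.21 for the brain difference between strains, -0.094 to 0.19 for C57 WBC and -0.15 to 0.27 for C57 RBC. The groups whose strand ratio differed numbered 1 to 3, and those whose family share differed 1 to 5. With a pseudocount of 1 the first was 3 and with log2 odds the second was 4, without sham irradiated C57 lung replicate 1 the second was 3, without sham irradiated C3H heart replicate 3 it was 2, and within either letter, with 2 to 4 mice a group in places, both were 0.

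Pairing the tissues of a mouse as a replicate block gave 0.80 for C57 lung minus heart (adjusted p = 0.0163, correlation within mice 0.057) and 0.30 for C3H, and 16 of 20 tissue pairs for miR-34a-5p and 14 of 20 for the strand ratio, which with 0 to 3 reads of the 3p strand follows mainly the 5p count and the pseudocount. With 5 pairs, the C3H WBC comparisons cannot go below an exact p of 0.0625. Within a tissue each mouse gave 1 library, so irradiated and sham irradiated mice could not be paired. Depth limited miR-34a-3p, with at most 3 reads a library, and miR-34a-5p in RBC, where the smallest count was 4.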

Other observations

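The miRNAs whose levels were most like those of miR-34a-5p over the 20 group means, among 401 with at least 10 RPM in a group, were miR-335-5p, miR-125b-1-3p, miR-674-3p, miR-187-3p and miR-181a-1-3p (Pearson's r of log2 RPM between 0.97 and 0.98). The points share the same tissues, so that r mostly describes the order of the tissues. For miR-34a-3p they were miR-7b-5p, miR-135b-5p and miR-206-3p (r 0.87, 0.86 and 0.84), on counts of 3 or fewer a library. Over the 35 lung libraries, which share strain and irradiation groups, the most similar were miR-184-3p (r 0.88), miR-541-5p (0.85), miR-7b-5p (0.85), miR-411-5p (0.84) and miR-379-5p (0.79). MiR-184-3p had 3.70 ± 1.46 RPM in sham irradiated and 82.0 ± 18.7 RPM in irradiated C3H lungs (SD, n = 8 and 7), and 6.27 ± 5.15 and 20.1 ± 9.57 RPM in C57 lungs (SD, n = 15 and 5). These miRNAs were chosen for the similarity, and no test is given.

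Whether mice with more miR-34a-5p in one tissue had more in another was examined in 26 pairs of tissues within a strain and treatment, and 16 of the 26 correlations were positive (Pearson's r -0.57 to 0.93, median 0.20). After adjustment 1 passed, WBC with RBC in sham irradiated C57 mice (permutation test, adjusted p = 0.00156). The sexes did not overlap in WBC, and within the 7 males r was 0.96 and Spearman's rho 0.86 (exact permutation p = 0.00496 and 0.0238). Without the 2 males farthest from the median r was 0.54, so within males the relation rests on those mice, and 4 females were too few. Brain with RBC, which did not pass in all 15 mice (r 0.53, permutation test, adjusted p = 0.598), gave r 0.91 in the 7 females (rho 0.86, exact permutation p = 0.00516 and 0.0238, unadjusted) and 0.42 without the 2 farthest, and r 0.51 in the 8 males (rho 0.76, exact permutation p = 0.191 and 0.0368) and 0.72 without the 2 farthest. In females the relation rests on those 2 mice, which gave brain replicates 11 and 12. Both fractions were taken from the same blood.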
